A study of Mus musculus with 20 samples.

Results

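The beta-defensin genes described here are the genes whose symbol in the deposited table is Defb followed by digits only. The rule found 42 genes among 51810, and 41 of them had at least 1 fragment in the 12 libraries. The study sequenced poly(A) RNA from medullary thymic epithelial cells (mTEC), epithelium of the inner thymus that shows self-proteins to maturing thymocytes, from mice of 4 to 5 weeks. It compared mTEClo and mTEChi cells from Trp53-WT mice (WT below) and from Trp53-cHyper mice (cHyper below), with 3 libraries in each of the 4 groups. EpCAM-positive cells had been enriched and 75000 mTEC sorted per sample. What cHyper stands for, whether the allele was limited to a cell type, the sort gates, and how many mice gave each library were not stated in the labels or files, so a p-value speaks only of the spread among the libraries, part of which may be technical.

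Beta-defensins are small secreted cationic peptides of epithelia and the male reproductive tract. Each is usually made from a short precursor whose signal peptide and mature peptide are encoded by separate exons, and the mature peptide is held together by disulfide bonds between 6 conserved cysteines. They disrupt microbial membranes, some attract immune cells through the chemokine receptor Ccr6, and many mouse members are known mainly from the epididymis, where they coat sperm. Mature mTEC transcribe many such tissue-restricted genes at low levels, in part through the regulator Aire.

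The members lay in 5 clusters of the mouse genome (mm10): 2 genes on chromosome 1, 11 on chromosome 2, 14 and 10 in a proximal and a distal cluster of chromosome 8, and 5 on chromosome 14. Their deposited gene lengths ran from 174 to 2425 bases with a median of 381, against 1283 over all genes. All 42 are annotated as protein coding in GENCODE vM21, and their exon bases there equal the deposited lengths in 42 of 42. In 38 of 42 the coding sequence held the 6 cysteine codons in the order and spacing searched for: gaps of 4 to 8, 2 to 6, 7 to 13 and 4 to 9 residues and then an adjacent pair. Defb8, Defb33, Defb46 and Defb50 did not. In 37 of the 38 the gap between the third and the fourth cysteine was 9 residues, and in 1, Defb22, it was 13. The coding sequences of the 5 members on which the results turn are shown so that the frame they share can be seen. They are the longest coding sequence of each gene in GENCODE vM21 (GRCm38), 5′ to 3′ without the stop codon, and the capitals mark the 6 cysteine codons.
Defb1: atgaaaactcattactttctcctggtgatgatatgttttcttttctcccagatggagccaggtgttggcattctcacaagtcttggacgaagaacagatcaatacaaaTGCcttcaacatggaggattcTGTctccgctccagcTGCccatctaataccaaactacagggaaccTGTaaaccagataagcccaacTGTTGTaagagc
Defb6: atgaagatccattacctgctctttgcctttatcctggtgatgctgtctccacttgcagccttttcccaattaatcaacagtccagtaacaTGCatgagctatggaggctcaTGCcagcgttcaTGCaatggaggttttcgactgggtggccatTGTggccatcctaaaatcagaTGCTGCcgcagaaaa
Defb19: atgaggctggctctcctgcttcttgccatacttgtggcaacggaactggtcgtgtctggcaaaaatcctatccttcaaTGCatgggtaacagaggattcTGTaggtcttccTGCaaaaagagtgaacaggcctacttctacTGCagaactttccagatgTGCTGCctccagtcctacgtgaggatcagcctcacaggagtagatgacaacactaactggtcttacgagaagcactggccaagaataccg
Defb30: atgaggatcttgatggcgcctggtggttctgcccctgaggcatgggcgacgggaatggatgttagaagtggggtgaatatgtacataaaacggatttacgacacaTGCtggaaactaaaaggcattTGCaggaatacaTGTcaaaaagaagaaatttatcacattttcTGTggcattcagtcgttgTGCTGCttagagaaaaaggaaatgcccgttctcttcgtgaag
Defb42: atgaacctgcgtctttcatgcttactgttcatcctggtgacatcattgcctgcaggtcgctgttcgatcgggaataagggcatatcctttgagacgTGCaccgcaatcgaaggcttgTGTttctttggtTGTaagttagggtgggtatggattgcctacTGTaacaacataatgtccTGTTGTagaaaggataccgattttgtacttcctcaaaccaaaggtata
Beyond the cysteine codons the 5 sequences have little in common by eye or by alignment: the member most like Defb1 was Defb2, at 61.6% identity over the aligned coding bases, and the one most like Defb42 was Defb47, at 52.1%. Defb1 (chr8:21776599-21795185, plus strand) has the spacing 6, 4, 9 and 6, which 9 members share. Defb6 (chr8:19225478-19228209, plus strand) has 6, 3, 9 and 6, shared by 6 members. Defb19 (chr2:152576086-152580312, minus strand), Defb30 (chr14:63034087-63049960, minus strand) and Defb42 (chr14:63046991-63058149, plus strand) have 6, 3, 9 and 5, the commonest spacing, with 15 members. Defb30 and Defb42 overlap on opposite strands but share 0 exon bases.

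Some members are close copies. The most alike pairs of coding sequences were Defb15 and Defb34 at 91.0% identity, Defb3 and Defb5 at 85.4% and Defb10 and Defb11 at 84.4%. The longest stretch of identical bases shared by the members of these pairs was 39, 31 and 56 bases. The treatment of reads that fit more than 1 gene was not stated, and the values of these pairs are uncertain. Defb15 also shares 200 exon bases with Gm36879 on the opposite strand, which had 283 fragments.

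Library totals ran from 22.02 to 47.93 M fragments, and replicate 3 of each group had at most 25.31 M. Xist was at 1049 CPM or more in that replicate and at 7.77 CPM or less in replicates 1 and 2, and Ddx3y, which is Y-linked, had 0 fragments there and 2745 or more in the others. Sex and depth therefore move together with this replicate number in all 4 groups, and for Defb30 and Defb42 ratios are given below separately for replicates 1 and 2 and for replicate 3. The labelled cell type held: the summed level of 15 mTEC genes ran from 23830 to 30483 CPM over the groups, and Aire was at 11.3 to 16.2 CPM in WT mTEClo, 38.6 to 51.4 in cHyper mTEClo, 1918 to 1923 in WT mTEChi and 1281 to 1885 in cHyper mTEChi. Trp53 was measured in every library, at 136 to 138 CPM in WT and 154 to 177 in cHyper mTEClo, and at 98.0 to 107 in WT and 129 to 138 in cHyper mTEChi. CPM here are normalised counts on the TMM scale of edgeR, except for Xist, whose CPM are scaled by library totals.

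Most beta-defensin genes had fragments in mTEChi and few in mTEClo. At least 1 fragment was found for 15 members in WT mTEClo, 20 in cHyper mTEClo, 40 in WT mTEChi and 39 in cHyper mTEChi. These are 35.7%, 47.6%, 95.2% and 92.9% of the members, against 65.2%, 65.5%, 82.9% and 79.95% of all genes in the table. With at least 10 fragments the counts were 5, 6, 31 and 29. These are 11.9%, 14.3%, 73.8% and 69.0% of the members, against 49.9%, 49.9%, 63.6% and 60.6% of all genes. The single WT mTEClo libraries had 10, 12 and 8 members with a fragment and the cHyper ones 11, 14 and 15. For mTEChi the numbers were 37, 36 and 37 in WT and 36, 37 and 33 in cHyper. The libraries of the 2 cell types did not overlap in this count, and within a cell type those of the genotypes did.

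**Figure D1:**
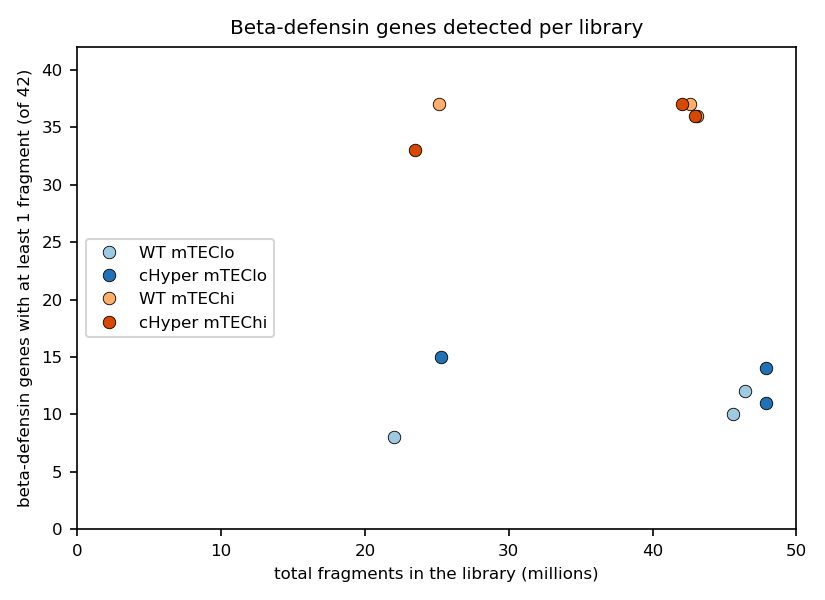
Number of beta-defensin genes with at least 1 fragment (vertical axis, of 42) against the total fragments of each library in M (horizontal axis); each point is 1 of 12 libraries, coloured by group. The mTEClo libraries lie between 8 and 15 genes and the mTEChi libraries between 33 and 37, at deep and shallow totals alike.

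By cell type, 21 members had fragments in both mTEClo and mTEChi, 20 in mTEChi only and 0 in mTEClo only. Defb9, a member of the distal chromosome 8 cluster, had 0 fragments in all 12 libraries. Of the 20, 14 had at least 10 fragments in mTEChi. In mTEClo, 6 members had 0 fragments in WT and 1 to 6 in cHyper (Defb22, Defb37, Defb46, Defb8, Defb13 and Defb48), and 1, Defb38, had 1 in WT and 0 in cHyper. A count of 0 allows up to 0.0281 CPM in WT mTEClo and 0.0268 CPM in cHyper mTEClo (3 fragments over the group). In cHyper mTEClo, Defb46 at 0.0578 CPM lay above the WT limit, as did Defb37 and Defb8, both at 0.0307 CPM from replicate 2 alone. Defb46 and Defb8 were not called by edgeR (adjusted p = 0.124 and 0.248), and Defb37 failed the filter on low counts. These cHyper values carry counting error of their own, and none of the members named was taken to separate the genotypes in mTEClo. In mTEChi, Defb18 had 5 fragments and Defb34 had 4 in WT and 0 in cHyper, and Defb40 had 0 in WT and 3 in cHyper. Such intervals and limits cover counting error only.

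**Figure D2:**
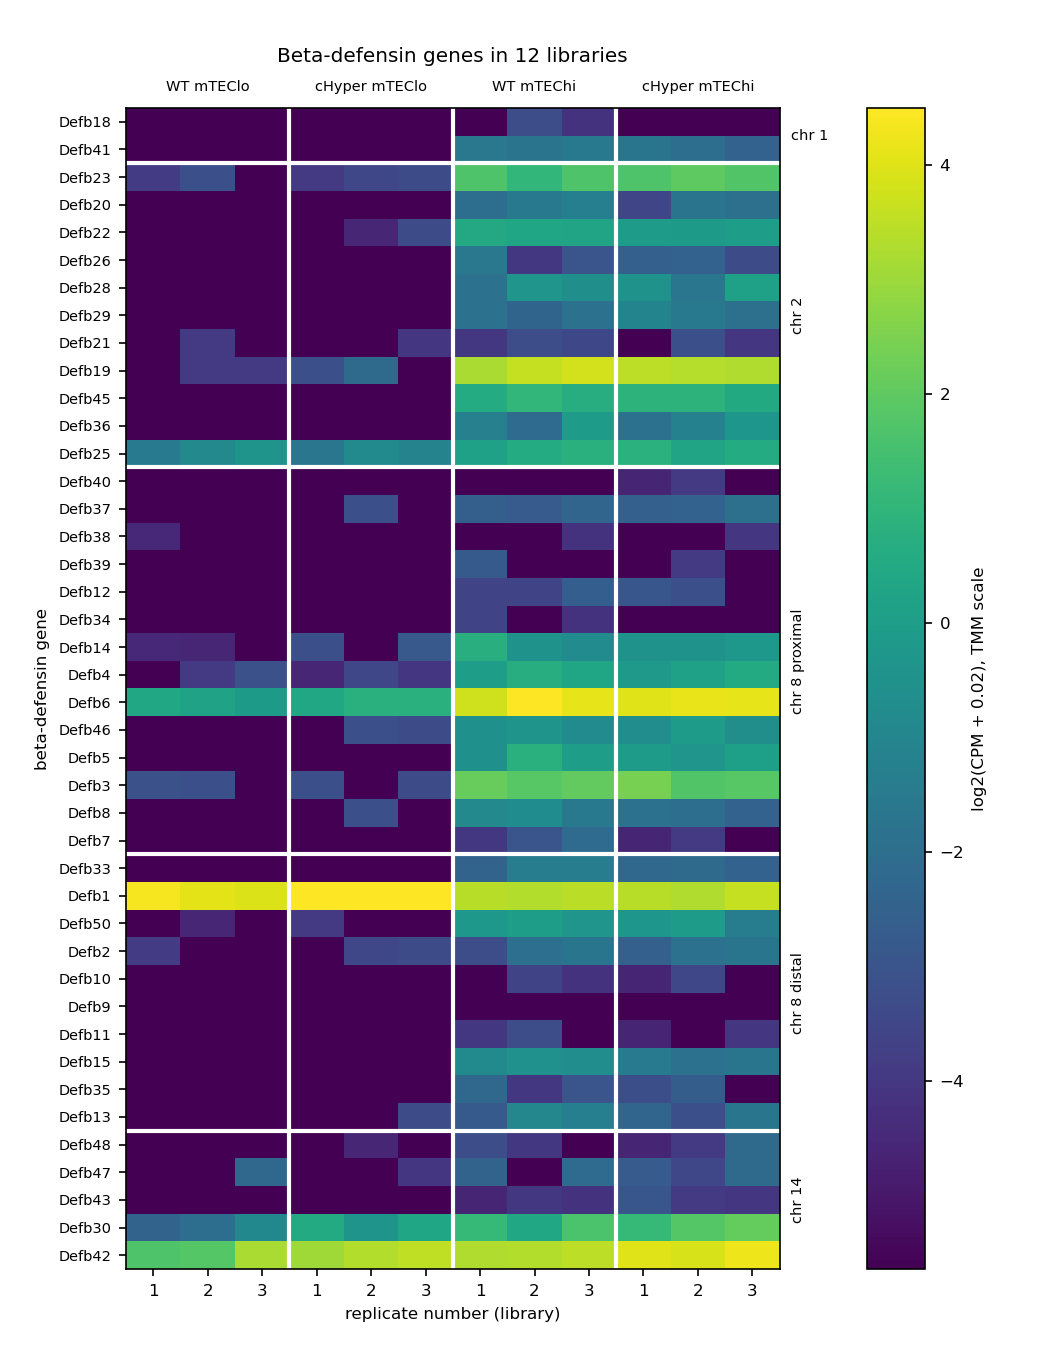
Level of each of the 42 beta-defensin genes (rows, grouped by chromosome cluster) in each of the 12 libraries (columns, by group and replicate number), as log2 of CPM + 0.02, where the darkest colour is 0 fragments. Defb1 is bright in all 12 libraries, Defb42, Defb30, Defb25 and Defb6 have fragments in all 12, and most other rows are dark in mTEClo.

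Summed over the 42 members, the level was 25.4 ± 2.36 CPM (SD, n = 3) in WT mTEClo, 36.1 ± 2.06 in cHyper mTEClo, 74.0 ± 6.71 in WT mTEChi and 78.4 ± 3.45 in cHyper mTEChi. A single gene made up most of the mTEClo sums: Defb1 gave 56.9% to 79.6% of the beta-defensin fragments in WT mTEClo libraries and 58.9% to 66.0% in cHyper mTEClo libraries, but 13.04% to 16.1% and 12.8% to 14.6% in mTEChi. Without Defb1 the sums were 7.66, 13.7, 63.5 and 67.6 CPM. In bulk RNA, fewer cells with a transcript and less transcript per cell cannot be told apart.

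Per length, the order of the genes differed between the cell types. In deposited TPM, mTEClo was led by Defb1 at 43.7 ± 8.05 in WT and 54.2 ± 1.70 in cHyper, then Defb6 at 7.36 ± 1.59 and 10.3 ± 1.54, Defb42 at 4.70 ± 2.86 and 8.61 ± 1.55, and Defb25 at 3.89 ± 1.41 and 3.11 ± 0.882 (SD, n = 3 in each group). The mean ± SD ranges of Defb6 and Defb42 overlap in both genotypes, as do those of Defb42 and Defb25 in WT. In mTEChi the order was led by Defb6 at 135 ± 30.9 TPM in WT and 122 ± 3.41 in cHyper, then Defb19 at 73.0 ± 11.0 and 61.3 ± 7.37, Defb3 at 36.4 ± 4.67 and 34.3 ± 10.7, and Defb1 at 29.6 ± 1.88 and 28.5 ± 2.92. Defb3 and Defb1 overlap in their ranges in cHyper mTEChi. Below them, Defb5, Defb14, Defb25, Defb23 and Defb42 lay between 10.5 and 13.2 TPM in WT mTEChi, within each other's spread.

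**Figure D3:**
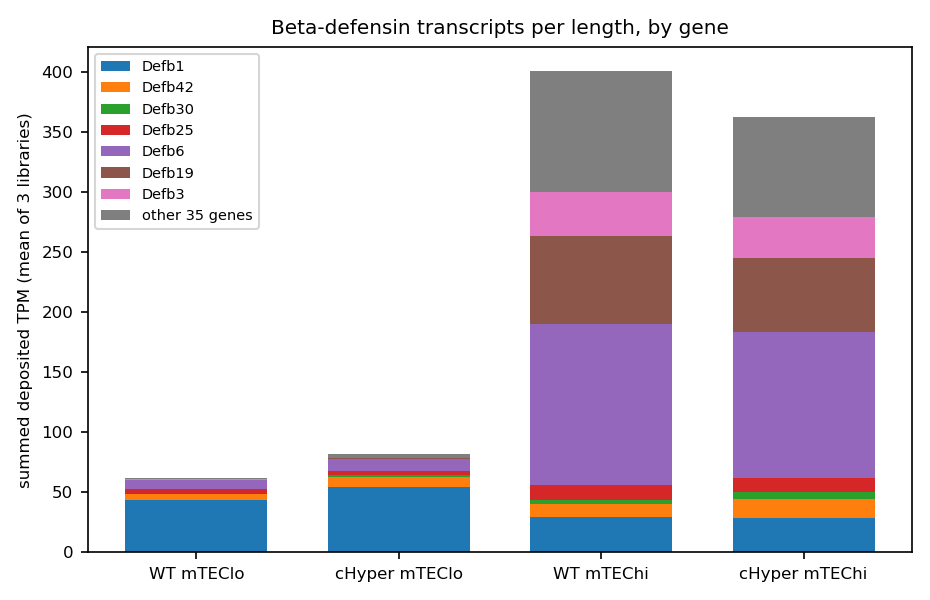
Deposited TPM summed over the beta-defensin genes (vertical axis, mean of 3 libraries) in the 4 groups, with 7 genes coloured and the other 35 in grey. The sums are 62.0 and 82.2 TPM in WT and cHyper mTEClo, mostly Defb1, and 401 and 363 TPM in WT and cHyper mTEChi, where Defb6, Defb19 and Defb3 take the largest coloured parts.

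The first comparison set mTEChi against mTEClo within each genotype, and all members that could be tested were called. Of the 42 members, 24 passed the filter on low counts, and 23 were higher and 1, Defb1, lower in mTEChi in both WT and cHyper (edgeR's quasi-likelihood test, adjusted p under 0.05). Over all 28932 genes tested, 69.5% were called in WT (40.2% higher, 29.4% lower) and 64.5% in cHyper (38.7% higher, 25.8% lower). Because 19 of the 24 passed the filter only through their mTEChi libraries, they had to differ, and this count is a description. The 5 members that also pass in mTEClo libraries alone are Defb1, Defb6, Defb25, Defb30 and Defb42: 4 were higher and 1 lower. The median log2 difference of all genes tested was itself 0.12 in WT with TMM, 0.22 with DESeq2 size factors and 0.34 with library totals, and 0.13, 0.18 and 0.30 in cHyper. The groups did not overlap in 30 of 42 members with mTEChi higher and 1 with it lower in WT, and in 28 and 1 in cHyper. Among tested genes the shares were 41.8% and 31.4% in WT and 40.3% and 28.4% in cHyper. The member counts take in members that failed the filter, and the shares do not. Many members had 0 fragments in mTEClo, which fixed the outcome wherever all mTEChi libraries had fragments. All 24 had an unadjusted p under 0.05, as had 71.8% of genes in WT and 67.4% in cHyper.

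Defb1, the constitutive beta-defensin of kidney, airway and other epithelia, was the member that fell. It was measured at 20.7, 17.0 and 15.6 CPM in WT mTEClo and at 10.7, 10.1 and 10.8 CPM in WT mTEChi. In cHyper it was at 22.6, 22.1 and 22.6 CPM in mTEClo and at 10.7, 9.73 and 12.1 in mTEChi. The mTEChi libraries all lay below the mTEClo libraries. The log2 fold change was -0.76 ± 0.13 (SE, edgeR adjusted p = 9.6e-05) in WT and -1.05 ± 0.13 (adjusted p = 4.9e-06) in cHyper. It was lower in mTEChi with each scaling and each library left out, between -0.91 and -0.54 on the log2 scale in WT and between -1.16 and -0.89 in cHyper.

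Defb6, which encodes an epithelial peptide of the proximal chromosome 8 cluster, was the most abundant member per length in mTEChi. It was at 1.30, 1.13 and 0.891 CPM in WT mTEClo and 13.8, 22.6 and 17.2 CPM in WT mTEChi. In cHyper it was at 1.30, 1.72 and 1.71 CPM in mTEClo and 16.1, 18.0 and 17.4 CPM in mTEChi. No mTEClo library came near an mTEChi library, and Defb6 was 3.98 ± 0.22 higher on the log2 scale in WT (adjusted p = 8.8e-10) and 3.45 ± 0.21 in cHyper (adjusted p = 3.5e-09). Defb25, of the chromosome 2 cluster, had fragments in every library: 0.331 to 0.751 CPM in WT mTEClo against 1.08 to 1.73 in WT mTEChi, and 0.297 to 0.552 against 1.20 to 1.78 in cHyper. Its log2 differences, 1.46 ± 0.36 (adjusted p = 0.00214) and 1.78 ± 0.36 (adjusted p = 0.00057), were smaller than those of Defb6.

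The chromosome 2 cluster, many of whose members are known from the male tract, summed to 0.631 ± 0.223 CPM in WT mTEClo and 20.98 ± 3.13 CPM in WT mTEChi (SD, n = 3). Defb19, known from testis and epididymis, had 0, 2 and 1 fragments in WT mTEClo and was at 9.30, 12.2 and 13.999 CPM in WT mTEChi; in cHyper it was at 0 to 0.207 CPM in mTEClo and 11.3, 10.4 and 9.79 in mTEChi. The ratio of the WT totals, 1390 against 3 fragments, was 409-fold with a 95% exact counting interval of 140 to 1986. Defb23 was at 0.0457 to 0.0814 CPM in cHyper mTEClo and 3.20, 3.97 and 3.37 CPM in cHyper mTEChi, with no overlap. Defb45 had 0 fragments in all 6 mTEClo libraries and 210 and 199 in the WT and cHyper mTEChi groups, at least 61.8-fold and 65.5-fold higher against 3 fragments per group. Defb22 had 0 fragments in WT mTEClo and 157 in WT mTEChi, at least 46.2-fold higher. Defb28, Defb36, Defb20 and Defb29 had 0 fragments in both mTEClo groups and 21 to 72 in each mTEChi group.

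Of the proximal chromosome 8 cluster, 7 of 14 members passed the filter, and besides Defb6 they had few or no fragments in mTEClo. Defb3, an inducible epithelial peptide, was at 0 to 0.0945 CPM in WT mTEClo and 4.39, 3.66 and 4.19 CPM in WT mTEChi, with no overlap. Its close copy Defb5 had 0 fragments in mTEClo and 138 in WT and 101 in cHyper mTEChi, at least 40.6-fold and 33.2-fold higher. Defb4 and Defb14, both inducible by microbes and cytokines in other epithelia, had 4 and 2 fragments in WT mTEClo and 153 and 127 in WT mTEChi. Defb46 and Defb8, which lack the cysteine pattern searched for, had 0 fragments in WT mTEClo and 81 and 61 in WT mTEChi. On distal chromosome 8, Defb50, Defb15, Defb13 and Defb2 had 0 to 2 fragments in WT mTEClo and 106, 74, 40 and 23 in WT mTEChi. Defb41, on chromosome 1, had 0 fragments in mTEClo and 37 and 27 in WT and cHyper mTEChi.

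On chromosome 14, Defb42 had the smallest difference of the called members that rose, 0.99 ± 0.30 on the log2 scale in WT (edgeR adjusted p = 0.00934) and 0.75 ± 0.29 in cHyper (adjusted p = 0.0358). The ratio in WT was 2.91 in replicates 1 and 2 and 1.21 in replicate 3, and in cHyper it was 1.70 and 1.65. The WT log2 value ran from 0.71 to 1.55 over the alternatives. The WT call ended without WT mTEClo replicate 2 (adjusted p = 0.058), and the cHyper call ended in 7 of the fits that left out a library, with an adjusted p of up to 0.135: without replicates 1 or 2 of cHyper mTEClo, replicates 1 or 3 of cHyper mTEChi, or any replicate of WT mTEChi. Defb30 differed by 2.97 ± 0.47 in WT (adjusted p = 5.8e-05; ratios 8.78 and 6.01) and 1.54 ± 0.39 in cHyper (adjusted p = 0.00323; ratios 2.62 and 3.42). Defb8, Defb13 and Defb2 passed the filter only through mTEChi libraries, so their calls are a description and not a test. Even so, some of these calls ended when a single library was left out. In cHyper, Defb8 was not called without replicate 1 of mTEClo (adjusted p = 0.0727) or of mTEChi (0.0579), and Defb13 without replicates 1 or 2 of mTEClo or 1 or 3 of mTEChi (adjusted p up to 0.12). Defb2 was not called in cHyper without replicates 1 or 2 of cHyper mTEClo, 2 or 3 of cHyper mTEChi or 2 of WT mTEChi (adjusted p up to 0.142), with no filter on low counts (adjusted p = 0.067) or with only replicates 1 and 2 (adjusted p = 0.0826), nor in WT without WT mTEClo replicate 2 (adjusted p = 0.0603).

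Of the 18 members that failed the filter, 10 had at least 10 fragments over the 12 libraries. All of Defb33, Defb26, Defb35, Defb7 and Defb12 had 0 fragments in mTEClo. In WT and cHyper mTEChi their fragments numbered 35 and 22 for Defb33, 20 and 16 for Defb26, 14 and 10 for Defb35, 13 and 3 for Defb7, and 10 and 9 for Defb12. Defb37 had 18 and 20 fragments in WT and cHyper mTEChi and 4 in cHyper mTEClo, all in replicate 2. Defb47, on chromosome 14, had 4 fragments in WT mTEClo, all in replicate 3. Defb21, Defb48 and Defb43 had at most 8 fragments in any group. Defb18, Defb40, Defb38, Defb39, Defb34, Defb10 and Defb11 had 1 to 9 fragments in all. Without the filter, the calls were 29 higher and 1 lower in WT and 25 higher and 1 lower in cHyper, of 41 members. Of all 45445 genes then tested, 21998 were called in WT (59.9% of these higher) and 19768 in cHyper (61.3% of these higher).

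Markers of several other cells also rose with mTEChi, while those of fibroblasts went both ways. In WT, neutrophil genes rose in 10 of 11 tested and summed to 9.10 to 42.2 CPM in WT mTEClo and 372 to 478 CPM in WT mTEChi, and 11 of 11 myeloid genes rose, from 29.7 to 33.9 CPM to 525 to 703 CPM. Thymocyte genes rose in 10 of 12 in WT, from 11.6 to 28.9 CPM to 65.9 to 78.0 CPM, and in 6 of 12 in cHyper. Endothelial genes rose in 4 of 4 tested in both genotypes, from 2.39 to 4.14 CPM to 15.5 to 18.9 CPM in WT. Of 7 fibroblast genes, 2 were higher and 2 lower in WT mTEChi, and 3 and 3 in cHyper mTEChi. Their sum was 147 to 170 CPM in WT mTEClo and 119 to 193 CPM in WT mTEChi. Over all genes tested, 40.2% were higher in mTEChi in WT and 38.7% in cHyper. All the genes of these lists had fragments in mTEChi, and 1 neutrophil gene, Elane, had 0 in mTEClo. In mTEClo the level of Aire was 0.744% of its mTEChi level in WT and 2.71% in cHyper, and that of Cd80 was 3.50% and 2.06%. The 19 members that pass the filter only through mTEChi, which are low in mTEClo by that choice, summed to 26 fragments in WT and 60 in cHyper mTEClo. For the members that pass in mTEClo alone the percentages of the mTEChi level were 6.21% and 9.18% for Defb6, 37.5% and 29.1% for Defb25, 13.9% and 34.3% for Defb30, and 52.0% and 59.6% for Defb42. The part of other cells, or of mTEChi cells in the mTEClo sort, in these values was not tested.

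The second comparison set cHyper against WT in mTEClo. Defb30 was the only member called in the edgeR fit of all libraries without a term for the replicate number. With that fit, of the 24 tested, 1 was higher and 0 lower, and 5 had an unadjusted p under 0.05 (Defb30, Defb42, Defb46, Defb1 and Defb22), where 9.16% of all genes tested were called (4.53% higher, 4.64% lower) and 23.1% had such a p. The groups did not overlap in 3 members, all higher in cHyper (Defb30, Defb1 and Defb6), against 12.2% of tested genes with fragments in mTEClo. Of the 24, 19 passed the filter only through mTEChi libraries, and 8 had 0 fragments in both mTEClo groups and could not be called. The members' shares of calls and of such p did not exceed those of all genes, but are not on the same footing. The 12.2% leaves genes with 0 fragments in both groups out. The count without overlap is therefore not on the same footing as that share either. Among the 5 members that pass in mTEClo libraries alone, 1, Defb30, was called.

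Defb30, whose transcript is known from the epididymis, was at 0.165, 0.231 and 0.516 CPM in WT mTEClo (7, 10 and 11 fragments) and at 1.46, 0.736 and 1.26 CPM in cHyper mTEClo (64, 32 and 31 fragments). The lowest cHyper library lay above the highest WT library. The log2 fold change was 2.05 ± 0.49 (SE, edgeR adjusted p = 0.0164). The ratio of means was 5.54 in replicates 1 and 2 and 2.45 in replicate 3. Without WT replicate 1, WT replicate 2 or cHyper replicate 1 of mTEClo the log2 fold change was 1.74, 1.91 and 1.80 and the adjusted p was 0.0782, 0.061 and 0.0629, which ended the call.

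Defb42, the neighbour of Defb30 on the other strand, was at 3.28, 3.57 and 9.34 CPM in WT mTEClo and 8.18, 9.93 and 11.6 CPM in cHyper mTEClo. WT replicate 3 lay inside the cHyper range, and the other WT libraries lay below it. The log2 fold change was 0.91 ± 0.30 (edgeR adjusted p = 0.0774), which missed the threshold. Defb42 was called with the replicate block (0.99, adjusted p = 0.0121), with DESeq2 (0.87, adjusted p = 0.0385), with limma-voom (1.15, adjusted p = 0.0133) and with no filter on low counts (0.91, adjusted p = 0.00998), and without that library (1.51, adjusted p = 0.00021). The ratio was 2.64 in replicates 1 and 2 and 1.24 in replicate 3. Defb1 had a log2 fold change of 0.33 ± 0.13 (adjusted p = 0.129), Defb6 of 0.47 ± 0.23 (adjusted p = 0.235) and Defb25 of -0.26 ± 0.39 (adjusted p = 0.757). The chromosome 14 cluster, which Defb42 and Defb30 make up almost entirely, summed to 5.76 ± 3.71 CPM in WT and 11.1 ± 1.65 CPM in cHyper mTEClo (SD, n = 3).

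**Figure D4:**
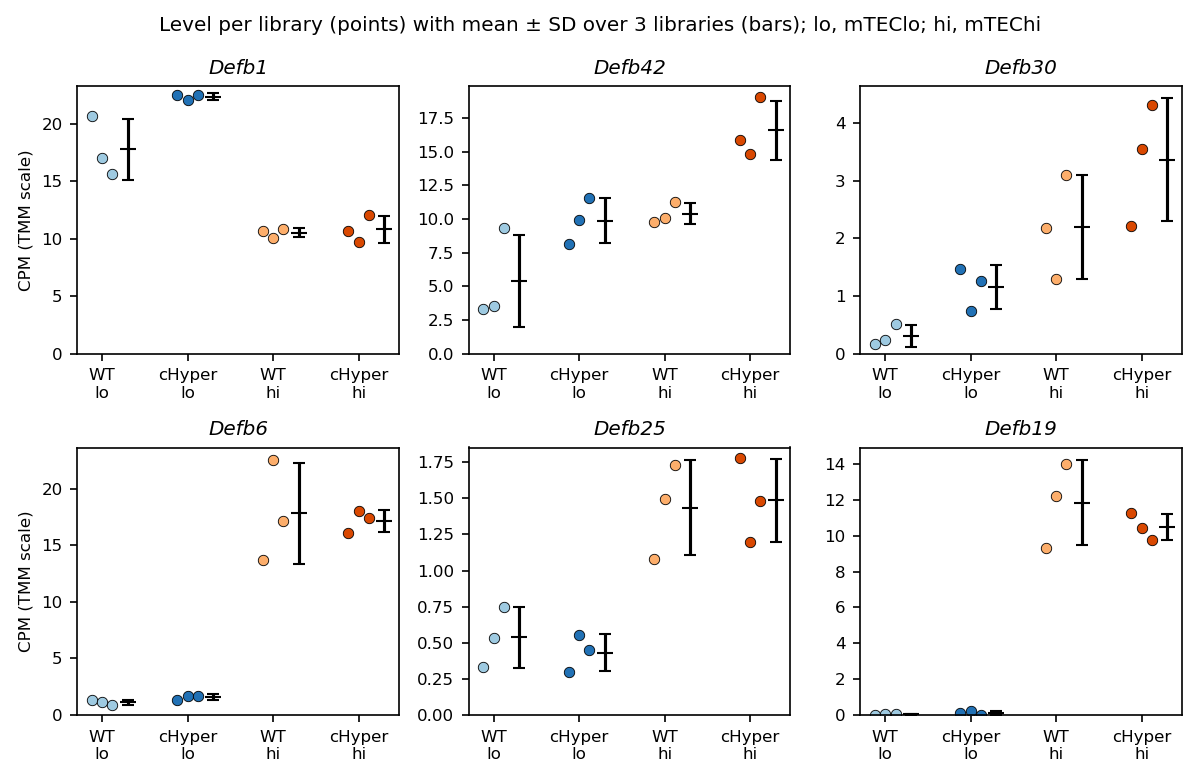
CPM (vertical axes, each from 0) of Defb1, Defb42, Defb30, Defb6, Defb25 and Defb19 in the 4 groups; points are libraries in the order of replicates 1 to 3 and bars are mean ± SD over 3 libraries. Defb1 is lower in mTEChi than in mTEClo, the other 5 genes are higher, and the WT mTEClo point of Defb42 at 9.34 CPM stands above the other 2 of its group.

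Genes with a role in mTEChi moved in the same comparison: Aire was higher in cHyper mTEClo by 1.64 ± 0.17 on the log2 scale (adjusted p = 2.4e-05) and Cd80, a costimulatory ligand used to mark mTEChi, was lower at -1.03 ± 0.21 (adjusted p = 0.0055). Defb19 had 3 fragments in WT and 13 in cHyper mTEClo, a ratio of 4.14 with a 95% counting interval of 1.14 to 22.7 (adjusted p = 0.217). The summed thymocyte genes were at 11.6 to 28.9 CPM in WT and 21.8 to 44.5 CPM in cHyper mTEClo, with 0 of 12 called by edgeR and 5 at an unadjusted p under 0.05. The part of these in the Defb30 difference was not tested.

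The third comparison set cHyper against WT in mTEChi, and none of the 24 members was called. DESeq2, which gave an adjusted p to only 9 of the 24, and limma-voom also called 0. In the edgeR fit 2 members, Defb42 and Defb15, had an unadjusted p under 0.05. Over all genes tested 1.98% were called (1.56% higher, 0.418% lower) and 15% had such a p. The share of higher calls among all genes moved with the scaling and tool: it was 78.8% with TMM, 66.0% with DESeq2 size factors, 64.4% with library totals and 49.1% with DESeq2. The median log2 fold change of the 24 members was -0.07, against -0.00 over all genes.

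Defb42 was at 9.78, 10.1 and 11.3 CPM in WT mTEChi and 15.9, 14.9 and 19.04 CPM in cHyper mTEChi, with no overlap. Its log2 fold change was 0.68 ± 0.29 (edgeR adjusted p = 0.294), and the ratio was 1.55 in replicates 1 and 2 and 1.69 in replicate 3. With only the mTEChi libraries in the fit it was called (adjusted p = 0.0171). Of the 24 members tested, 1 did not overlap with cHyper higher (Defb42) and 3 with cHyper lower (Defb15, Defb22 and Defb8). Of all tested genes, 12.4% and 13.3% did the same. Defb15 was at 0.552, 0.671 and 0.613 CPM in WT and 0.351, 0.254 and 0.288 CPM in cHyper, a log2 fold change of -1.03 ± 0.44 (adjusted p = 0.316). Defb8 had 61 fragments in WT and 26 in cHyper (log2 -1.11 ± 0.61, adjusted p = 0.423), and Defb22 had 157 and 107 (log2 -0.44 ± 0.37, adjusted p = 0.62).

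The members with the highest TPM in mTEChi had genotype differences smaller than their standard errors. Defb6 had a log2 fold change of -0.05 ± 0.18, Defb19 of -0.17 ± 0.26, Defb3 of 0.01 ± 0.31 and Defb1 of 0.04 ± 0.13. The signs of Defb3 and Defb1 turned with DESeq2 size factors and with library totals. Defb30 was at 2.19, 1.30 and 3.10 CPM in WT and 2.22, 3.55 and 4.32 CPM in cHyper, overlapping (log2 0.62 ± 0.37, adjusted p = 0.463). The chromosome 14 sum was 12.8 ± 1.63 CPM in WT and 20.2 ± 3.09 in cHyper mTEChi, while the chromosome 2 sum was 20.98 ± 3.13 and 20.1 ± 0.589 and the proximal chromosome 8 sum 26.9 ± 4.48 and 25.3 ± 0.225.

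**Figure D5:**
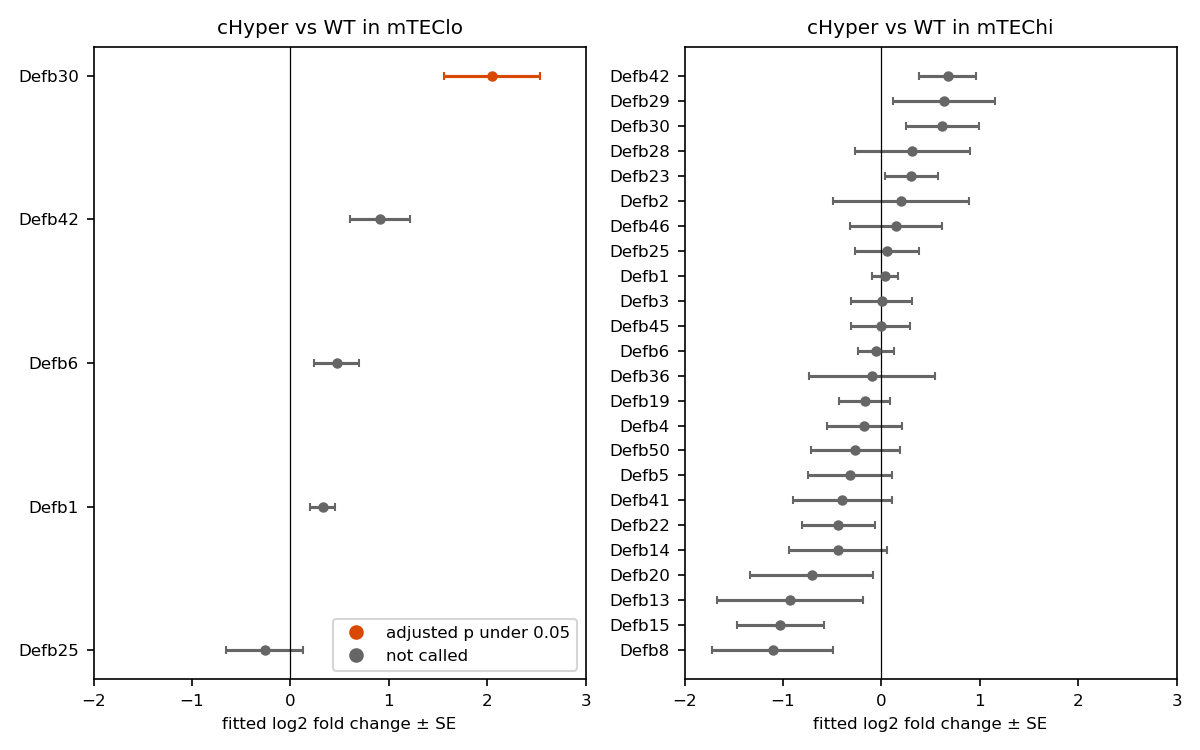
Fitted log2 fold change of cHyper against WT with its standard error (horizontal axes) for the 5 members that pass the filter on mTEClo libraries (left) and the 24 that pass in all libraries (right, mTEChi); orange marks an adjusted p under 0.05. Defb30 in mTEClo, at 2.05, is the only orange point.

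Whether the genotype difference itself differed between the cell types was tested as an interaction. None of the 24 members was called (edgeR), where 2.06% of all genes were (1.13% higher, 0.926% lower), and 5 had an unadjusted p under 0.05 (Defb8, Defb46, Defb22, Defb30 and Defb19) against 14.3% of genes. DESeq2, which gave an adjusted p to only 11 of the 24, and limma-voom called 0 as well. The difference between the genotype effects, mTEChi less mTEClo, was -1.43 ± 0.62 on the log2 scale for Defb30 (adjusted p = 0.302) and -0.24 ± 0.42 for Defb42 (adjusted p = 0.883). Of the 5, Defb8, Defb46 and Defb22 had 0 fragments in WT mTEClo and 4, 6 and 3 in cHyper mTEClo. Defb19 had 3 and 13. The unadjusted p of these members rest on few fragments, so the count of 5 is not on the footing of the 14.3%. The test says nothing of members with 0 fragments in both mTEClo groups.

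The starts of Defb30 and Defb42 are shown because they are the chromosome 14 members that passed the filter and are neighbours on opposite strands. The sequences run from 250 bases before to 50 bases after the RefSeq start (GRCm38.p6), 5′ to 3′ on the gene's strand: chr14:63037797-63038096, minus strand, for Defb30 and chr14:63046741-63047040, plus strand, for Defb42. Capitals mark a match to TATAAA, in Defb30 read on the opposite strand; Defb42 holds none.
Defb30: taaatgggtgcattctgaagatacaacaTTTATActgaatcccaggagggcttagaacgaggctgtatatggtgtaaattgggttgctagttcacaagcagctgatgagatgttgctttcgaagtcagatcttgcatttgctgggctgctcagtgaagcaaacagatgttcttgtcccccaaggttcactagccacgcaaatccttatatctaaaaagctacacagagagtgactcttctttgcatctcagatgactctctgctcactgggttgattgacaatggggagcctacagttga
Defb42: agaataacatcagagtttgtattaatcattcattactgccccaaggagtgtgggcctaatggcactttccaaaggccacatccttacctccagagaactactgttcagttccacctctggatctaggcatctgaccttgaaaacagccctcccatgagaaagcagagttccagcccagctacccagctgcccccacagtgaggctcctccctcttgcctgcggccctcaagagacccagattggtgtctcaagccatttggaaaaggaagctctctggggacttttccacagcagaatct
The RefSeq start of Defb30 lies inside the longer gene span given above, so this start and the Defb30 coding sequence shown earlier may belong to different transcripts. RefSeq start sequences matched 29 of the 42 members, with 30 starts. On either strand TATAAA was in 5 of the 30 (16.7%, the starts of Defb7, Defb15, Defb23, Defb30 and Defb48), against 13.6% of 32817 starts of all genes. The AP-1 motif TGANTCA was in 2 (7.81% of all) and the p53 half-site in 0 (8.36% of all). A match describes letters in this window only.

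Other genes tied to beta-defensins were read from lists. Of 41 antimicrobial genes of other families tested, 36 were higher and 2 lower in mTEChi in both genotypes, and in cHyper mTEClo 4 were higher and 1 lower than in WT. The higher ones were Bpifa1, an airway secretory protein (log2 2.05 ± 0.20, adjusted p = 1.4e-05), Bpifb1, Slpi and Sprr2a1, and the lower one was Itln1. In mTEChi 1 of the 41, Bpifa1, was higher in cHyper (log2 1.18 ± 0.19, adjusted p = 0.00408). Of 32 sensors, cytokine receptors and transcription factors that induce epithelial defensins, 2 were higher and 7 lower in cHyper mTEClo, among them Nod1 (log2 -1.39 ± 0.19, adjusted p = 0.00027), Fos and Jun, and 3 were higher in cHyper mTEChi. Of 14 receptors and processing enzymes, 11 were higher and 3 lower in mTEChi in both genotypes: Ccr6 was at 0 to 0.0926 CPM in WT mTEClo and 17.4 to 19.96 CPM in WT mTEChi.

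Genes of the tissues in which beta-defensins are known were listed likewise. Of 28 epididymis and testis genes tested, 25 were higher and 2 lower in mTEChi in both genotypes, and in cHyper mTEClo 1 was higher (Lcn10) and 3 lower (Adam28, Spag11b and Adam7) than in WT. Spag11b, which encodes a beta-defensin-like sperm protein, changed by -2.19 ± 0.45 on the log2 scale (adjusted p = 0.00619), opposite in sign to Defb30. Between the genotypes in mTEChi edgeR called 0 of the 28, with 6 at an unadjusted p under 0.05. Of 28 airway, skin and oral genes, 24 in WT and 23 in cHyper were higher in mTEChi and 1 lower, and 3 were higher in cHyper mTEClo. Beside these counts the shares of all genes called are those given above.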

How the data were processed

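Libraries were strand-marked and sequenced in pairs, per the labels' protocols, and the authors deposited 1 table with fragment counts and TPM for 12 libraries, the runs of replicates 1 and 2 of each group already combined. Per the submitters' processing notes the build was mm10 and the tools were SAMtools 1.9, TopHat2 2.1.1 and Subread 2.0.1 with featureCounts, whose strand and multi-read settings were not stated. Members and gene lists were chosen with earlier results of these data known. Deposited counts of 28932 genes passing filterByExpr were fitted over all 12 libraries with edgeR 4.0.16 (quasi-likelihood, TMM, group means, 8 residual degrees of freedom) in R 4.3.3, with Benjamini-Hochberg adjustment over all genes and calls at 0.05. Alternatives used DESeq2 1.42.0 and limma 3.58.1 (voom). Deposited TPM entered no test. SE is the fold change divided by the square root of F. Members passing the filter are described with values, and failing members with at least 10 fragments by their fragments. Of list genes, up to 4 called genes of smallest p per comparison could be named, and others named were chosen after their values were seen. In counts simulated for cHyper against WT in mTEClo over 28932 genes, 200 genes drawn from the well-covered ones were changed. The fit recovered 50% of 2-fold and 100% of 4-fold changes, with 3 unchanged genes called. The simulation gave all genes the same spread and no difference between the cell types. It therefore says nothing of members with few fragments in mTEClo. Same-numbered libraries deviated together between genotypes in mTEChi (correlations 0.136 to 0.206) and between cell types in cHyper (0.104 to 0.125). There the number was taken to pair libraries, but only the alternative with a replicate block used it. The main fit held no term for the replicate number. No pair of libraries differed by as little as sampling noise.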

Additional observations from a re-analysis of the deposited data

How the results depend on the processing

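Signs turned for some uncalled genotype differences, given here as log2 fold changes. In mTEChi, Defb3 was at -0.0499 with DESeq2 size factors, -0.061 with library totals, -0.0494 with DESeq2 and -0.0219 with the replicate block, and Defb1 at -0.0194, -0.0307 and -0.0214 with the first 3 of these. With only replicates 1 and 2, Defb1 was at -0.02002 and Defb19 at 0.0156. When a library was left out, Defb3 ranged from -0.275 to 0.132, Defb1 from -0.0434 to 0.112 and Defb6 from -0.219 to 0.148 in mTEChi, and the interaction of Defb42 from -0.837 to 0.0252. The causes were not tested. In mTEClo, 2 members, Defb30 and Defb42, were higher in cHyper with no filter, DESeq2, limma-voom, the replicate block and only replicates 1 and 2 (chosen after seeing the data), and between 0 and 2 when a library was left out. In mTEChi the number higher in cHyper was 1, Defb42, with only the compared groups in the fit, and 0 to 1 when a library was left out. The replicate block changed no other call. In 2 comparisons a pair of same-numbered libraries correlated at under 0.1 (0.097 and 0.093), so there the block shows a shared number only; all 6 libraries of each correlated best with their own number. Calls over all genes between genotypes in mTEChi were 572, and 1455 with DESeq2, 1251 with the block, 1126 with only the compared groups, 862 with limma-voom and 312 with replicates 1 and 2. DESeq2 gave an adjusted p to 15, 9 and 11 of the 24 members in mTEClo, mTEChi and the interaction. With at least 10 fragments 5 members counted as present in WT and 6 in cHyper mTEClo, and with at least 0.1 CPM 5 and 5. Summed levels of WT and cHyper mTEClo and WT and cHyper mTEChi were 62.0, 82.2, 401 and 363 in deposited TPM, and 7.66, 13.7, 63.5 and 67.6 CPM without Defb1; with library totals cHyper mTEClo was 33.6 and WT mTEChi 80.9 CPM. Over all gene and library values, 21547 equalled 1 and 28336 equalled 2, and 10882 equalled 3 and 14241 equalled 4; the cause was not tested, and counting intervals may be too narrow.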
